A study of Homo sapiens with 12 samples.

Results

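The experiment described here set HepG2 cells that carried both perturbations of the study, knock-down of the macroH2A histones and exposure to TNFα, against HepG2 cells that carried neither. HepG2 is an established human hepatoma line. Of the 12 RNA sequencing libraries, 6 formed the comparison: the 3 libraries named DKD_TNFa and the 3 named CTL_untreated, read from the raw count table across all genes. DKD cells stably express shRNAs directed at the MACROH2A1 and MACROH2A2 transcripts, and CTL cells carry control shRNAs. All cells spent a night in medium with little serum and then received TNFα at 20 ng/mL, or the vehicle alone, for 24 hours. The other 6 libraries, DKD_untreated and CTL_TNFa, were used to split the combined change into a knock-down part and a TNFα part. The cassettes of the knock-down were integrated with retroviral vectors, and the labels do not say whether each line is one clone or a pool, so that a difference between the lines and an effect of the knock-down cannot be told apart. Nor is it stated whether each library had a culture of its own, and the p-values then rest on a spread between libraries that may be technical.

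MacroH2A1 and macroH2A2 are variants of histone H2A that carry a large macrodomain at the C-terminus and are often found in repressed chromatin. TNFα binds its receptor at the cell surface and activates the IKK kinases, which release NF-kB to the nucleus. NF-kB then switches on inflammatory genes together with its own inhibitors, such as NFKBIA. Hepatocytes make most plasma proteins, including albumin, fibrinogen, clotting and complement factors and apolipoproteins, and inflammation is known to raise some of these (the acute-phase proteins) and lower others. Liver genes that go up in the knock-down and down with TNFα are thus a place where both changes can meet.

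Each gene was described by 3 log2 fold changes from one edgeR model. The knock-down change is DKD against CTL, averaged over both treatments. The TNFα change is TNFα against vehicle, averaged over both lines. The combined change is DKD_TNFa against CTL_untreated. By construction the combined change is the sum of the other two, whatever the interaction, and adding on the log2 scale is multiplying on the linear scale. A gene was called at a Benjamini-Hochberg adjusted p under 0.05 over the 16118 genes tested. CPM is a gene's count scaled to a TMM-adjusted library total of 1e6, and CPM levels are compared only within a gene.

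Both targeted transcripts were low in the cells with both perturbations. MACROH2A1 (chromosome 5, 135334381 to 135399887, RefSeq on GRCh38.p14) stood at 205, 250 and 254 CPM in CTL_untreated and at 44.2, 63.5 and 58.8 in DKD_TNFa. MACROH2A2 (chromosome 10, 70052846 to 70112282) stood at 58.3, 54.8 and 60.4 CPM in CTL_untreated and at 4.64, 3.96 and 3.28 in DKD_TNFa. The groups did not overlap for either gene, and the combined log2 fold changes were -2.09 (SE 0.20, adjusted p = 0.00011) and -3.87 (SE 0.16, adjusted p = 4.69e-07).

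Library totals ran from 30955080 to 42094144 counts, so that 1 count was worth 0.0238 to 0.0323 CPM of the unadjusted total. DKD_untreated replicate 1 and DKD_TNFa replicate 1 lay away from the rest on principal component 1, which held 33.1% of the variance. Their scores were -83.7 and -53.9, against -18.2 to 41.5 for the other 10 libraries. Results were therefore also computed from replicates 2 and 3 alone. Replicate numbers pair the libraries across groups, and the fit with the replicate number as a block is given beside a combined call that it changes and beside a count that it moves by more than 1.5 times. Of the 120 genes selected by the naming rule, 65 overlap another RefSeq gene, and since the strand setting of the counting is not given in the sources used here, reads of such a pair may not be separable. Of 20 markers of other cell types, 11 were detected well enough to be tested, and CD3E and KRT14 had no count in any library. LYZ, the lysozyme gene, was abundant in every library, and rose from 351 to 398 CPM in CTL_untreated to 945 to 1247 in DKD_TNFa. The summed level of the other-cell markers without LYZ, EPCAM and KRT19 was 39.2 to 42.5 CPM in CTL_untreated and 43.7 to 54.9 in DKD_TNFa.

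Between CTL_untreated and DKD_TNFa, 994 genes were higher and 517 were lower. These are 6.17% and 3.21% of all genes tested. The 3 libraries of the groups did not overlap for 992 of the 994 and for all 517, against 29.2% of all genes tested. The fold change passed 2-fold (1 on the log2 scale) for 435 higher and 97 lower genes, and 4-fold (2 on the log2 scale) for 168 and 44. With the replicate block, 2360 genes were higher (14.6%) and 1738 were lower (10.8%), and all 994 and all 517 were among them with the same direction. The total of 1511 calls fell to 797 without CTL_untreated replicate 3, to 937 without CTL_untreated replicate 1, to 969 without DKD_TNFa replicate 2 and to 1007 without DKD_TNFa replicate 3. It rose to 2448 without DKD_untreated replicate 1 and to 3605 in replicates 2 and 3 alone.

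The knock-down part was the larger of the 2 parts for 586 of the 994 genes that rose (59%) and for 75.8% of the 517 that fell. It was also the larger for 9022 of all 16118 genes tested, called or not. Over all genes tested, the knock-down change was called higher for 1368 genes (8.49%) and lower for 974 (6.04%), and the TNFα change was called higher for 809 (5.02%) and lower for 354 (2.2%). The replicate block gave 2545 (15.8%) and 2488 (15.4%) for the knock-down and 1993 (12.4%) and 1421 (8.82%) for TNFα. Of the 994 that rose, 502 were called for the knock-down change and not for the TNFα change, 276 for the TNFα change and not for the knock-down change, and 119 for both in the same direction. Another 28 were called for both in opposite directions, and 69 were called for neither. Of the 517 that fell, the same counts were 340, 63, 26, 11 and 77. Of the genes called in the combined change, 302 that rose (30.4%) and 229 that fell (44.3%) were called in none of the 4 single steps between neighbouring groups.

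UBD showed the largest rise among genes that met the naming rule. For the largest rises and falls that rule required that the CTL_untreated and DKD_TNFa libraries did not overlap. It encodes FAT10, a ubiquitin-like modifier induced by inflammatory cytokines. UBD (chromosome 6, 29555515 to 29559732) stood at 1.65, 4.52 and 4.10 CPM in CTL_untreated, at 4.95, 14.6 and 11.4 in DKD_untreated, at 183, 243 and 250 in CTL_TNFa and at 239, 318 and 348 in DKD_TNFa. Every DKD_TNFa library was thus above every CTL_untreated and DKD_untreated library, and the highest CTL_TNFa library lay above the lowest DKD_TNFa library. The combined log2 fold change was 6.47 (SE 0.47, 95% interval 5.43 to 7.51, adjusted p = 1.8e-05), made of 1.01 from the knock-down and 5.46 from TNFα. The knock-down call of UBD was lost when any 1 of 9 libraries was left out (adjusted p of 0.0035 to 0.077 over the 12 omissions), namely all except CTL_untreated replicate 2 and replicate 1 of both DKD groups.

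BIRC3, an inhibitor of apoptosis that NF-kB induces, also rose mainly with TNFα, from 5.18, 5.74 and 5.86 CPM in CTL_untreated to 65.9, 106 and 96.7 in DKD_TNFa. Its combined log2 fold change was 4.0 (SE 0.22, adjusted p = 2.54e-06), with 3.73 from TNFα and 0.27 from the knock-down, which was not called (adjusted p = 0.25). GPRC5B, an orphan G protein-coupled receptor, and SLC6A19, a neutral amino acid transporter, also carried mostly TNFα parts (4.92 and 3.57). GPRC5B is a low-count gene whose DKD_TNFa libraries read 0.87, 12.1 and 15.6 CPM, with replicate 1 far below the others, against 0.10 to 0.17 in CTL_untreated. Its combined log2 fold change of 6.15 accordingly has an SE of 1.14.

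The promoter windows of UBD and BIRC3 are printed because both genes rose mainly with TNFα. Each runs from 250 bases before the annotated start to 50 after it on the gene's own strand (RefSeq, GRCh38.p14), and capitals mark letters like an NF-kB site: GGGA or GGGG, then any 4 bases, then CC, searched on both strands. UBD lies on the minus strand at chr6:29559683-29559982 and BIRC3 on the plus strand at chr11:102317234-102317533. The UBD window holds 1 such match and the BIRC3 window 2. This loose pattern occurs in 40.7% of the 35116 promoter windows of the table, so a match is a description only.
UBD: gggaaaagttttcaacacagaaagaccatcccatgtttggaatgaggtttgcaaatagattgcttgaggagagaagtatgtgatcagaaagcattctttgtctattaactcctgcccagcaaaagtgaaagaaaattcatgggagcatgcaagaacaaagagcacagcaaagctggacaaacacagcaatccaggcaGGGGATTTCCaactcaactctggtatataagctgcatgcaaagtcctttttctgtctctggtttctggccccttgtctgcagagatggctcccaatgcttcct
BIRC3: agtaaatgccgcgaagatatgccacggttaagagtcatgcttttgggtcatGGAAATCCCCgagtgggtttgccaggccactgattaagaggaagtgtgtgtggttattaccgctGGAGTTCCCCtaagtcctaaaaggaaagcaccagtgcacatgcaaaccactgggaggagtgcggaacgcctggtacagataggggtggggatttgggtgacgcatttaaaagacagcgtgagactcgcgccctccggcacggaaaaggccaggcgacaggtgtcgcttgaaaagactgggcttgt

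Other large rises came with the knock-down. LTBP1, which binds latent TGF-beta in the matrix, was at 0.75, 1.41 and 1.18 CPM in CTL_untreated and at 21.9, 31.1 and 29.1 in DKD_TNFa, so that the combined change was 4.63 on the log2 scale (SE 0.24, adjusted p = 2.14e-06) and the knock-down part 4.36. GNG12, a G protein gamma subunit, rose from 1.34 to 1.48 CPM to 29.7 to 39 (combined 4.61, knock-down part 4.07). SLC6A14, an amino acid transporter, and SEZ6L2, a membrane protein, rose by 3.75 and 3.71 with knock-down parts of 3.13 and 3.02. For HTR1D, a serotonin receptor, and SPATA21 both parts were called, and the parts were of similar size: 1.7 and 1.89 for HTR1D (combined 3.59), 1.43 and 2.21 for SPATA21 (combined 3.64). The TNFα parts of LTBP1, SLC6A14 and SEZ6L2 were not called (adjusted p of 0.39, 0.27 and 0.12), nor was that of GNG12 (0.052). The TNFα part was called for each of these 4 genes with the replicate block.

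The largest falls came with the knock-down. CCND2, cyclin D2, had 3828 counts over the 3 CTL_untreated libraries and 2 over the 3 DKD_TNFa libraries, which is 2062-fold lower with a 95% counting interval of 570.3 to 17030. This interval pools the 3 libraries of each group and holds only the sampling of reads, not the spread between replicates. CSAG1 and MAGEA12, cancer-testis genes of the X chromosome, fell from 13.7 to 15.7 CPM to 0.096 to 0.15 and from 26.0 to 28.5 CPM to 0.24 to 0.43. Both belong to families with near-identical copies, so their counts are less certain. TTN, which encodes the muscle protein titin, read 84.7, 41.3 and 45.6 CPM in CTL_untreated and 4.47, 4.30 and 5.28 in DKD_TNFa (combined -3.61, SE 0.34, adjusted p = 0.00011). PPP1R3B, which targets protein phosphatase 1 to glycogen, and TIAM1, a Rac exchange factor, fell by 3.09 and 2.96 on the log2 scale. ARSI, a sulfatase, KCNIP4, a potassium channel-interacting protein, and PODXL, a sialomucin of the cell surface, fell by 2.73, 2.50 and 2.34. In 2 of these genes TNFα acted the other way: its part was 1.06 for TTN and 1.03 for ARSI, both called, so the combined fall was smaller than the knock-down part of -4.67 and -3.76. The TTN call for TNFα was lost without replicate 3 of CTL_untreated, DKD_untreated or DKD_TNFa (adjusted p of 0.0056 to 0.059 over the 12 omissions).

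**Figure D1:**
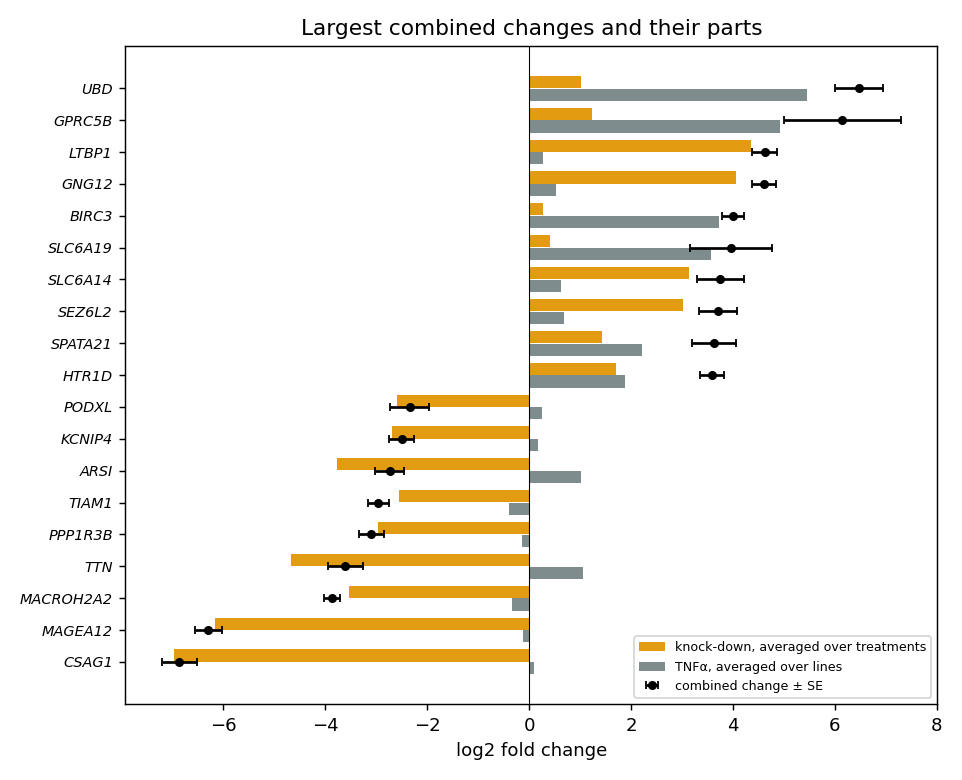
Largest combined changes and their parts. Horizontal bars give the knock-down change and the TNFα change of each gene (log2 fold change), and points give the combined change with its SE, from all 12 libraries. UBD, GPRC5B, BIRC3 and SLC6A19 carry mostly a TNFα part, the genes that fell carry mostly a knock-down part, and the TNFα bars of TTN and ARSI point against their knock-down bars. CCND2 is not drawn because it had 2 counts in DKD_TNFa.

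Sorting genes by both parts gave 4 classes. Both changes were called higher for 119 genes (0.738% of those tested) and both lower for 26 (0.161%). The knock-down was higher and TNFα lower for 132 genes (0.819%), and the knock-down lower and TNFα higher for 149 (0.924%). So 145 genes had changes that add up and 281 had changes that cancel in part or in full. The combined values of these classes follow from how the genes were sorted and are given as a description. The genes with both changes higher had a median combined log2 fold change of 1.49, with a range of 0.50 to 6.47, and the 26 with both lower had a median of -0.88. Where the parts opposed each other, the median combined change was 0.066 (knock-down higher) and 0.064 (knock-down lower), against 0.012 over all genes tested. The median size of the combined change in these classes, without regard to sign, was 0.17 and 0.14, against 0.22 over all genes tested.

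Most genes with opposing parts were not called in the combined change, and the same held for 90.6% of all genes tested. Of the 132 genes with knock-down higher and TNFα lower, 113 (85.6%) were not called in the combined change, 18 were called higher and 1 lower. Of the 149 genes with knock-down lower and TNFα higher, 129 (86.6%) were not called, 10 were called higher and 10 lower. With the replicate block, fewer of the same genes lacked a combined call: 91 of the 132 and 106 of the 149, against 12020 of all 16118. A call that is missing does not show that a gene returned to its starting level. The 95% interval of the combined change lay within a 2-fold difference in either direction for 109 of the 132 genes, 126 of the 149 and 11215 of all 16118 genes tested.

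**Figure D2:**
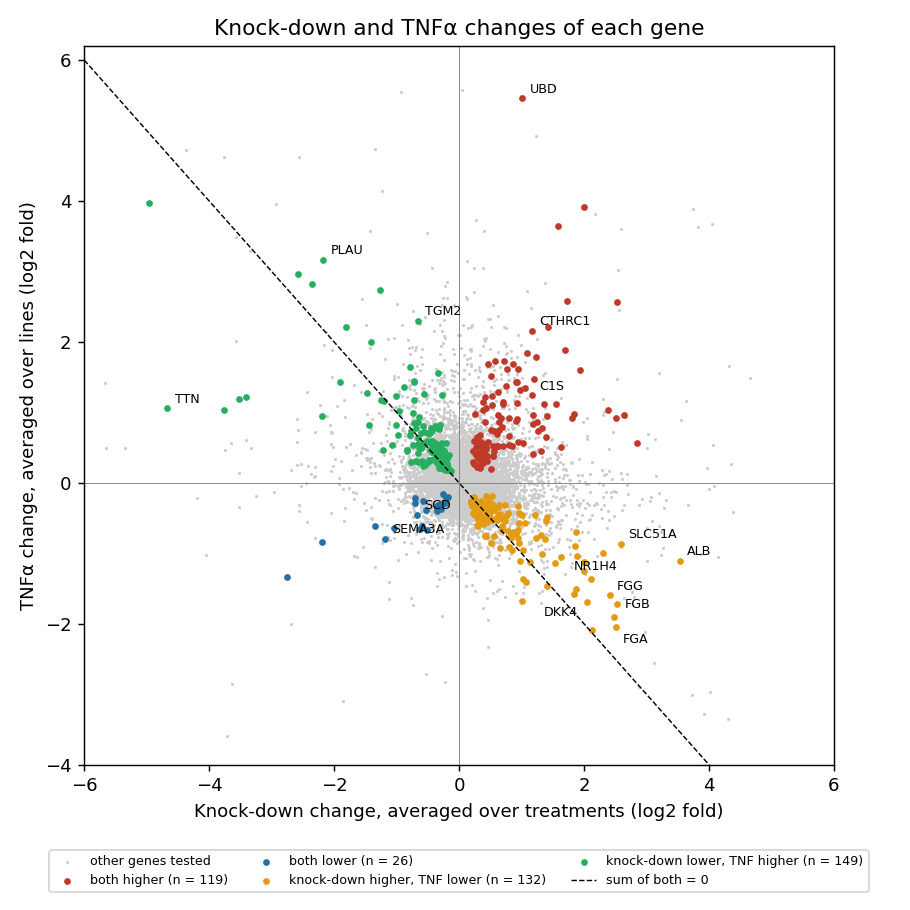
Knock-down change (x axis) against TNFα change (y axis) of each gene tested, both as log2 fold changes. Coloured points are the 4 classes called for both changes, grey points are all other genes, and 25 genes lie outside the axes. On the dashed line the sum of both parts is 0. The fibrinogen genes and NR1H4 lie near it, ALB lies to its right, and UBD lies far above it.

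The class sizes moved with the libraries and the fit. With the replicate block, the classes held 366 genes with both higher (2.27%), 168 with both lower (1.04%), 522 with knock-down higher and TNFα lower (3.24%) and 611 with knock-down lower and TNFα higher (3.79%), and each gene of the classes above was in the same class. Over the omissions of 1 library, the 4 classes ranged from 64 to 156, 9 to 44, 85 to 218 and 72 to 207 genes. The lowest counts came without CTL_untreated replicate 3, or, for the genes with both lower, without CTL_untreated replicate 1 or CTL_TNFa replicate 2, and the highest came without DKD_untreated replicate 1. In replicates 2 and 3 alone the classes held 361, 151, 571 and 531 genes.

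All 3 fibrinogen genes were in the class with knock-down higher and TNFα lower. Its 3 chains are encoded side by side on chromosome 4, FGB at 154562980 to 154572807, FGA at 154583126 to 154590742 and FGG at 154604136 to 154612656. Fibrinogen is the soluble precursor of fibrin, the protein mesh of a blood clot, and hepatocytes are its source. FGA stood at 107, 129 and 105 CPM in CTL_untreated, rose to 1261, 574 and 554 in DKD_untreated, lay at 36.4, 38.2 and 27 in CTL_TNFa and came to 271, 112 and 89.7 in DKD_TNFa. In DKD_TNFa, replicates 2 and 3 lay among or below the CTL_untreated libraries and replicate 1 lay above them. The knock-down part of FGA was 2.51 (SE 0.31, adjusted p = 0.00027) and the TNFα part -2.04 (SE 0.30, adjusted p = 0.0020). The sum was 0.47 (SE 0.41, 95% interval -0.43 to 1.37, adjusted p = 0.57), and it was -0.22 in replicates 2 and 3 alone (adjusted p = 0.41).

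FGB and FGG kept part of the knock-down rise. FGB read 39.8, 64.5 and 55.6 CPM in CTL_untreated, 588, 401 and 383 in DKD_untreated, 21.6, 28.4 and 21.8 in CTL_TNFa and 110, 93.0 and 78.3 in DKD_TNFa. All 3 DKD_TNFa libraries lay above all 3 CTL_untreated libraries, and far below DKD_untreated. Its parts were 2.54 and -1.72 (SE 0.16 for each), with a combined change of 0.81 (SE 0.22, 95% interval 0.34 to 1.29, adjusted p = 0.039). FGG read 274, 406 and 371 CPM in CTL_untreated and 837, 552 and 455 in DKD_TNFa, against 1748 to 2115 in DKD_untreated and 98.6 to 143 in CTL_TNFa. Its parts were 2.41 and -1.60 and its combined change 0.81 (SE 0.23, adjusted p = 0.049). Both combined calls stood near the threshold. That of FGB was lost on leaving out 1 of 7 libraries (any CTL_TNFa library, CTL_untreated replicate 1 or 3, DKD_TNFa replicate 1 or 2), with adjusted p of 0.014 to 0.13 over the 12 omissions. That of FGG was lost on leaving out any 1 of 10 libraries, all except DKD_untreated replicate 1 and DKD_TNFa replicate 3 (0.032 to 0.16), and in replicates 2 and 3 alone, where the change was 0.37 (adjusted p = 0.13).

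The promoter windows of the 3 fibrinogen genes and of ALB are printed because all 4 genes had a knock-down rise and a TNFα fall. They span 250 bases before to 50 after the start on the gene's strand (RefSeq, GRCh38.p14): FGA chr4:154590693-154590992 (minus strand), FGB chr4:154562730-154563029 (plus strand), FGG chr4:154612607-154612906 (minus strand) and ALB chr4:73404037-73404336 (plus strand). FGB has a second annotated start, and its window is not shown. Capitals mark matches on either strand to letters like a C/EBP site (TT, any 2 bases, G, any base, AA), an HNF1 site (GTTAAT, any base, ATT) or an NF-kB site as above. C/EBP proteins and HNF1 are transcription factors of liver genes. FGA holds 1 C/EBP-like and 1 HNF1-like match, FGB 3 C/EBP-like matches, FGG 1 C/EBP-like and 1 NF-kB-like match and ALB 4 C/EBP-like matches. The C/EBP-like letters occur in 36.8% and the HNF1-like letters in 0.322% of the 35116 windows of the table. Only 68.5% of the genes tested have a window there, so no share was compared between classes of genes.
FGA: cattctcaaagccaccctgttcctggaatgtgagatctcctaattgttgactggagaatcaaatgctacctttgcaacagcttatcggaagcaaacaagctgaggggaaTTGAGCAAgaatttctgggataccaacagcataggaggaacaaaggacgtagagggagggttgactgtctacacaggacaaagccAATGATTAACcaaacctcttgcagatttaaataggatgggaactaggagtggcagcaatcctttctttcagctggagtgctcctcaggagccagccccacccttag
FGB: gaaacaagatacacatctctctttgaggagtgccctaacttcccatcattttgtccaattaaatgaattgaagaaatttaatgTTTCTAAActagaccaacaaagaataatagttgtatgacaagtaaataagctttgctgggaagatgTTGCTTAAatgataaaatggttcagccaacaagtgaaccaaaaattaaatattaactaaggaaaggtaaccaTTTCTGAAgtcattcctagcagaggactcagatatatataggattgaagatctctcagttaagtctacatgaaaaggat
FGG: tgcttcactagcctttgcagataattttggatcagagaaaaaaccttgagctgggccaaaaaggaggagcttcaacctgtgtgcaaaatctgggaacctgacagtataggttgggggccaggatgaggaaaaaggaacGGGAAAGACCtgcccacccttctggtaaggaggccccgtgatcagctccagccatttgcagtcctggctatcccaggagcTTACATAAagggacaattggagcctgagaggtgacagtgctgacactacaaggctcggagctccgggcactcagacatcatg
ALB: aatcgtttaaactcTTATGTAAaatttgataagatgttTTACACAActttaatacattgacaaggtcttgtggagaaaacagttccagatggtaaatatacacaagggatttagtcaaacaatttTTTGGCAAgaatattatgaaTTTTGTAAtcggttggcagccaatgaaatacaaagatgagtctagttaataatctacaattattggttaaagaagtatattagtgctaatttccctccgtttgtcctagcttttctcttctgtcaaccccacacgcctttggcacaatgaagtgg

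ALB, albumin, the main carrier protein of plasma, kept most of the knock-down rise on the log2 scale, though not in CPM. It read 550, 477 and 391 CPM in CTL_untreated, 8437, 5605 and 4685 in DKD_untreated, 309, 229 and 213 in CTL_TNFa and 3042, 2438 and 2163 in DKD_TNFa. The 4 groups did not overlap, and DKD_TNFa lay between CTL_untreated and DKD_untreated. The knock-down part was 3.54 (SE 0.18, adjusted p = 7.38e-07), the TNFα part -1.11 (SE 0.16, adjusted p = 0.0020) and the combined change 2.43 (SE 0.24, adjusted p = 0.00013). AFP, alpha-fetoprotein, the fetal relative of albumin that hepatomas secrete, took the other direction. It was at 10000.3, 8997 and 8588 CPM in CTL_untreated and at 5480, 5774 and 4826 in DKD_TNFa, a fall of 0.78 on the log2 scale (SE 0.11, adjusted p = 0.00098) that was almost wholly the TNFα part of -0.94. Its knock-down part was 0.16 (adjusted p = 0.18), called only with the replicate block.

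**Figure D3:**
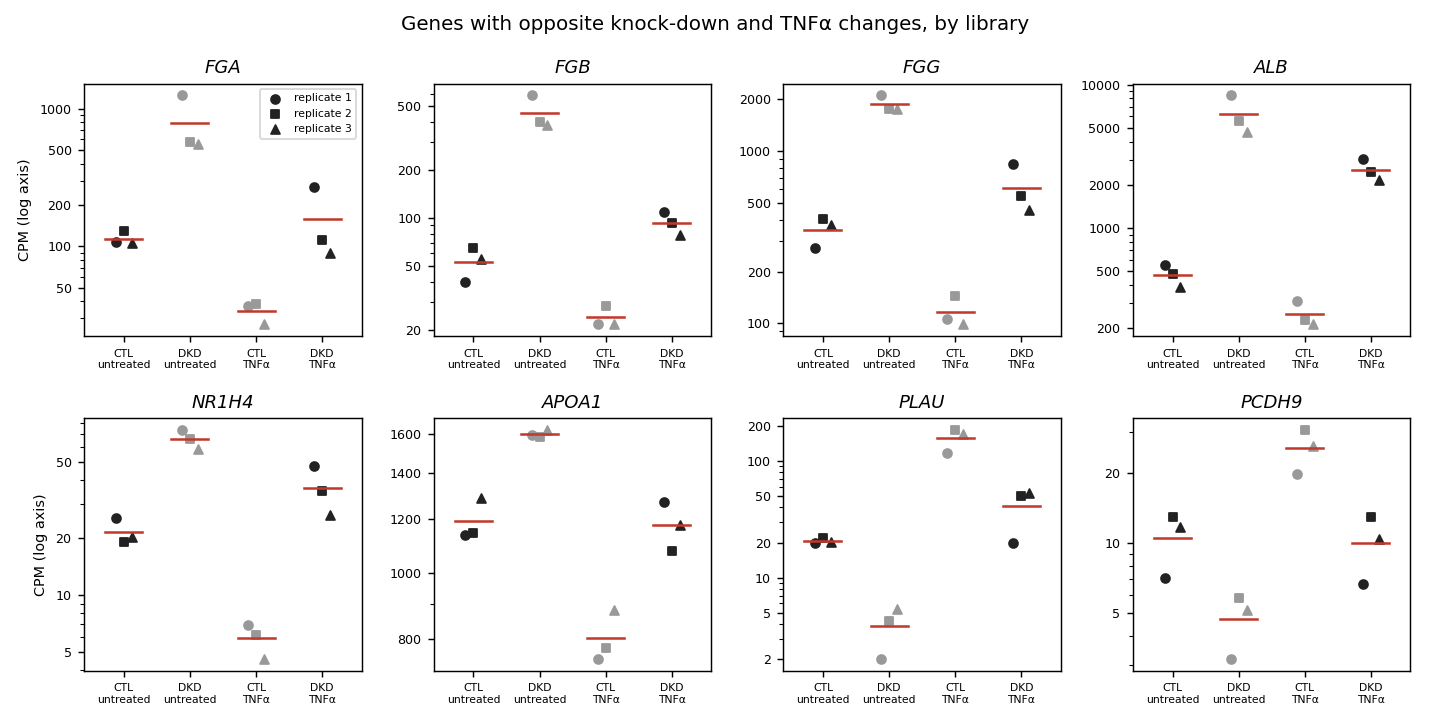
CPM of 8 genes with opposing knock-down and TNFα changes, by library. Each panel has its own log axis, points are libraries (shape gives the replicate number, black points are the groups compared here), and red lines are group means. In FGA, APOA1 and PCDH9 the black groups overlap while the grey groups lie on either side, and in ALB the DKD_TNFa libraries stay above all CTL libraries.

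The 5 lists of plasma proteins had members in the class with knock-down higher and TNFα lower. The lists held 86 genes, of which 75 were tested: 34 were called higher and none lower for the knock-down change, while 19 were called lower and 4 higher for the TNFα change. With the replicate block these counts were 49, 3, 35 and 7. Of the 75, 49 had a knock-down value above 0 and a TNFα value below 0, as had 4446 of all 16118 genes tested. Both changes were called in that sense for 14 of the 75, against 0.819% of all genes tested. Another 3 genes were called for both in the same direction (6 with the block), against 145 of all 16118 genes tested (534 with the block). The lists were chosen with earlier results of these data known, so these shares are set side by side as a description only. In the combined change 12 of the 75 were called higher and 1 lower, against 6.17% and 3.21% of all genes tested. The median log2 fold changes were 0.51 for the knock-down, -0.25 for TNFα and 0.27 for the sum, against 0.008, -0.005 and 0.012 over all genes tested. With the block 28 of the 75 had called and opposing parts of this kind (3.24% of all genes tested). The combined change was then called higher for 24 and lower for 5, against 14.6% and 10.8% of all genes tested. In replicates 2 and 3 alone 29 had such parts, and the combined median was 0.080. The summed CPM of 10 hepatocyte markers, 5 of which are among the genes with opposing parts, was 22196 to 23935 in CTL_untreated, 27821 to 41303 in DKD_untreated, 17743 to 19664 in CTL_TNFa and 20935 to 27626 in DKD_TNFa. The highest DKD_TNFa value was replicate 1, and the other 2 lay at 22798 and 20935. In bulk libraries fewer cells of a type and less RNA per cell cannot be told apart.

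Among carriers, HPX, RBP4, TF and TTR joined ALB in the class with knock-down higher and TNFα lower. RBP4, the carrier of retinol, was at 187, 161 and 170 CPM in CTL_untreated, 229 to 279 in DKD_untreated, 79.1 to 85.2 in CTL_TNFa and 165, 129 and 136 in DKD_TNFa. Here the TNFα part of -0.93 outweighed the knock-down part of 0.65, and the combined value was -0.27 (SE 0.11, adjusted p = 0.16; 0.013 with the replicate block). HPX, hemopexin, which binds heme, had parts of 1.99 and -1.26 at a low level of 0.53 to 1.03 CPM in CTL_untreated and 1.07 to 1.60 in DKD_TNFa (combined 0.74, adjusted p = 0.36). Its TNFα call was lost on leaving out any 1 of 10 libraries, all except CTL_untreated replicate 1 and DKD_untreated replicate 1 (adjusted p of 0.0012 to 0.099). TF, transferrin, and TTR, transthyretin, which fell outside the naming rule and are given to complete the list, had combined values of -0.34 and 0.22 (adjusted p = 0.16 for both).

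Among apolipoproteins, the parts of APOA1 were of nearly equal size. APOA1, the main protein of high-density lipoprotein, read 1137, 1145 and 1291 CPM in CTL_untreated and 1272, 1079 and 1178 in DKD_TNFa, with the groups interleaved. DKD_untreated lay at 1583 to 1622 CPM and CTL_TNFa at 748 to 882. The parts of 0.49 (SE 0.059, adjusted p = 0.00026) and -0.51 (SE 0.059, adjusted p = 0.00045) summed to -0.018 (SE 0.083, 95% interval -0.20 to 0.17, adjusted p = 0.94). APOC3, an inhibitor of triglyceride clearance, and LCAT, which esterifies cholesterol on lipoproteins, had combined values of 0.30 and -0.10 (adjusted p of 0.22 and 0.78) from knock-down parts of 0.77 and 0.37 and TNFα parts of -0.46 and -0.47. LCAT was near the threshold for both parts, and its knock-down call was lost on leaving out any 1 of 10 libraries, all except DKD_TNFa replicates 2 and 3 (adjusted p of 0.033 to 0.12). Its TNFα call was lost on leaving out any 1 of 7 (0.0013 to 0.069), namely CTL_untreated replicate 1 or 3, CTL_TNFa or DKD_TNFa replicate 2 or 3, or DKD_untreated replicate 2, and in replicates 2 and 3 alone its combined value of -0.29 was called (adjusted p = 0.039). None of the 16 apolipoprotein genes tested was called in the combined change (1 with the replicate block), against 9.37% of all genes tested (25.4% with it). In replicates 2 and 3 alone 1 was called higher and 2 lower. For the knock-down 5 were called higher and for TNFα 5 lower (9 and 11 with the block). The shares of all genes tested were 8.49% and 2.2% (15.8% and 8.82% with the block). The medians of the 16 genes were 0.30 for the knock-down, -0.31 for TNFα and -0.009 for the combined change.

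The clotting list held other genes besides fibrinogen. SERPINC1, antithrombin, had parts of 1.63 and -1.05 and a combined value of 0.58 (adjusted p = 0.21), named here to complete the 4 opposing genes of the list. PROC, the anticoagulant protein C, read 77.8, 73.9 and 68.0 CPM in CTL_untreated and 101, 91.4 and 109 in DKD_TNFa, without overlap (0.46, SE 0.085, adjusted p = 0.0061), mostly from the knock-down part of 0.59. That call was lost without CTL_untreated replicate 3 (adjusted p of 0.0064 to 0.051). KLKB1, plasma prekallikrein, was scarce at 0.26 to 0.63 CPM in CTL_untreated and 1.26 to 3.6 in DKD_TNFa (2.25, SE 0.63, adjusted p = 0.049), a call that was lost on leaving out any 1 of 10 libraries, all except DKD_untreated replicates 1 and 3 (adjusted p of 0.011 to 0.17). Of the 19 genes of this list that were tested, 4 rose in the combined change (8 with the replicate block) and none fell, with a median of 0.33. Over all genes tested 6.17% rose (14.6% with the block) and 3.21% fell.

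Acute-phase genes split. HP, haptoglobin, which binds free haemoglobin, had parts of 1.33 and -1.01 and a combined value of 0.32 (adjusted p = 0.21), with 5.45, 5.90 and 6.69 CPM in CTL_untreated and 7.52, 7.81 and 7.22 in DKD_TNFa. ORM2, orosomucoid, had parts of 0.45 and -0.56 and a combined value of -0.10 (adjusted p = 0.81), and may share reads with the near-identical ORM1. The knock-down call of ORM2 was lost on leaving out any 1 of 10 libraries, all except replicate 1 of both DKD groups (adjusted p of 0.0015 to 0.086), and its TNFα call without CTL_untreated replicate 3, DKD_untreated replicate 2 or 3 or CTL_TNFa replicate 2 (0.00098 to 0.059). LRG1 and SERPINA3 moved the other way. LRG1, a secreted leucine-rich glycoprotein, read 15.8, 18.4 and 18.7 CPM in CTL_untreated and 74.2, 53.8 and 62.1 in DKD_TNFa (1.85, SE 0.16, adjusted p = 6.7e-05), with a knock-down part of 0.70 and a TNFα part of 1.15, both called. SERPINA3, antichymotrypsin, rose from 12.1 to 30.6 CPM to 114 to 210 (3.05, SE 0.52, adjusted p = 0.0038), of which 2.10 was TNFα and 0.95 the knock-down part, which was not called (adjusted p = 0.092). SAA4, a constitutive serum amyloid, rose by 1.73 (adjusted p = 0.030), with a knock-down part of 1.98, and was not called without any 1 CTL_untreated library or DKD_TNFa replicate 2 or 3 (adjusted p of 0.0060 to 0.11).

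Bile acid genes also divided between both kinds of sum. NR1H4 encodes FXR, the nuclear receptor for bile acids. It was at 25.4, 19.0 and 20.1 CPM in CTL_untreated, 73.8, 66.0 and 58.4 in DKD_untreated, 6.93, 6.16 and 4.58 in CTL_TNFa and 47.4, 35.3 and 26.2 in DKD_TNFa. Every DKD_TNFa library lay above every CTL_untreated library, by a small margin in replicate 3. The parts were 2.12 and -1.37 and the combined change 0.75 (SE 0.22, 95% interval 0.27 to 1.23, adjusted p = 0.054; 0.0012 with the replicate block). It was called without DKD_untreated replicate 1 or DKD_TNFa replicate 3 (adjusted p of 0.025 to 0.19 over the 12 omissions). SLC51A, a subunit of the bile acid exporter OST, kept most of its knock-down rise on the log2 scale. It read 3.11, 3.49 and 3.36 CPM in CTL_untreated and 11.8, 11.8 and 9.48 in DKD_TNFa, with parts of 2.60 and -0.86 (combined 1.73, SE 0.15, adjusted p = 6.26e-05). CYP4F3, a fatty acid and leukotriene hydroxylase, ended at 26.8, 13.5 and 10.5 CPM against 14, 11 and 14.6, with parts of 1.87 and -1.51 (combined 0.36, adjusted p = 0.59). CYP3A5, a drug-metabolising cytochrome, added up: 4.43, 4.74 and 3.84 CPM became 14, 19.6 and 19.9 (2.04, SE 0.16, adjusted p = 3.33e-05), with parts of 0.52 and 1.52.

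Of 29 genes of bile acid and drug metabolism tested, 10 rose (15 with the replicate block) and 2 fell in the combined change. Over all genes tested 6.17% rose (14.6% with the block) and 3.21% fell (10.8% with it). The median of the list was 0.53, close to its knock-down median of 0.52 since its TNFα median was 0.08. AKR1B10, an aldo-keto reductase, rose by 1.87 (SE 0.21, adjusted p = 0.00029) and CYP27A1, a sterol hydroxylase, by 0.76 (SE 0.092, adjusted p = 0.00047), both with the knock-down part alone called. The list had 3 genes whose parts added up (5 with the block), against 145 of all 16118 genes tested (534 with the block). The 3 genes were CYP3A5, AKR1D1, a bile acid reductase (2.07), and NR0B2, the FXR target SHP (0.93). The 2 that fell were CYP2B6 (-1.78), a drug-metabolising cytochrome, and SLC27A5 (-0.42), a bile acid-CoA ligase. AKR1D1, NR0B2, CYP2B6 and SLC27A5 lie outside the naming rule. Among 21 liver transcription factors, GATA6 rose (1.44, SE 0.14, adjusted p = 0.00014; TNFα part 1.51), HNF4A rose (0.35, SE 0.097, adjusted p = 0.048) and FOXA1 fell (-0.43, SE 0.10, adjusted p = 0.023). The HNF4A call was lost on leaving out any 1 of 10 libraries, all except CTL_untreated replicate 3 and DKD_untreated replicate 1 (adjusted p of 0.033 to 0.16), and in replicates 2 and 3 alone. The FOXA1 call was lost without replicate 1 or 3 of CTL_untreated or replicate 2 or 3 of DKD_TNFa (adjusted p of 0.0073 to 0.093). With the replicate block 6 factors rose and 2 fell.

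The class with knock-down higher and TNFα lower also held genes outside the plasma protein lists. Of the 132, 14 were in those lists, which held 75 of all 16118 genes tested. In any gene list apart from the cell-type markers were 22 of the 132. DKK4, a secreted Wnt inhibitor, read 6.76, 7.66 and 4.89 CPM in CTL_untreated, 19.8, 18.1 and 11.9 in DKD_untreated, 1.32, 1.25 and 1.18 in CTL_TNFa and 10.2, 8.22 and 6.2 in DKD_TNFa (parts 2.04 and -1.69, combined 0.35, adjusted p = 0.44). VAV3, a guanine nucleotide exchange factor, had parts of 1.54 and -1.13, a wide spread (30.6 to 66.4 CPM in DKD_TNFa) and a combined value of 0.41 (adjusted p = 0.63; 0.043 with the replicate block). Its TNFα call was lost without any 1 CTL_untreated library or replicate 2 or 3 of either TNFα group (adjusted p of 0.019 to 0.10). LOX, lysyl oxidase, which crosslinks collagen, rose overall from 15.3, 21.0 and 16.5 CPM to 27.2, 42.4 and 26.6 (0.87, SE 0.22, adjusted p = 0.029; parts 2.00 and -1.13). That call was lost without CTL_untreated replicate 1 or 3 or DKD_TNFa replicate 2 (adjusted p of 0.026 to 0.12). PHGDH and PSAT1, the first 2 enzymes of serine synthesis, balanced closely, with combined values of -0.011 (SE 0.095) and -0.050 (SE 0.098). Their adjusted p were 0.97 and 0.83. CDC25C, a phosphatase of mitotic entry, had parts of 0.39 and -0.54 and a combined value of -0.15 (adjusted p = 0.52).

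In the mirror class, TNFα raised genes that the knock-down lowered. PLAU encodes urokinase, a protease that activates plasminogen. It read 19.8, 21.8 and 20.2 CPM in CTL_untreated, 1.99, 4.28 and 5.34 in DKD_untreated, 117, 185 and 172 in CTL_TNFa and 19.7, 49.6 and 53.4 in DKD_TNFa. DKD_TNFa replicate 1 lay level with CTL_untreated and the other 2 libraries lay above it. The parts were -2.18 (SE 0.28, adjusted p = 0.00036) and 3.17 (SE 0.29, adjusted p = 8.65e-05), with a combined value of 0.99 (SE 0.37, 95% interval 0.17 to 1.82, adjusted p = 0.13). With the replicate block its adjusted p was 0.018. Without DKD_TNFa replicate 1 it was 0.023, the lowest of the 12 omissions (up to 0.35), and in replicates 2 and 3 alone the change was 1.30 (adjusted p = 9.6e-05).

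SLC22A11, an organic anion transporter, ran in parallel: 3.11, 2.56 and 2.62 CPM in CTL_untreated, 0.79 to 1.10 in DKD_untreated, 9.05 to 10.3 in CTL_TNFa and 3.15, 4.49 and 4.79 in DKD_TNFa. Its combined value was 0.58 (SE 0.19, adjusted p = 0.084; 0.034 with the replicate block, 0.027 without DKD_TNFa replicate 1). In PCDH9, a protocadherin, the compared groups overlapped, at 7.08, 12.9 and 11.7 CPM and then 6.64, 13 and 10.4 (parts -1.26 and 1.18, combined -0.077, SE 0.31, adjusted p = 0.93). PCSK5, a proprotein convertase, read 58.3, 65.1 and 59.6 CPM and then 55.3, 77.8 and 80.2, so that DKD_TNFa replicates 2 and 3 lay above all CTL_untreated libraries. Its parts were -1.01 and 1.23 and its combined value 0.22 (adjusted p = 0.51, and 0.013 in replicates 2 and 3 alone). For CCDC141, which lies beside TTN on chromosome 2, the knock-down part of -3.51 outweighed the TNFα part of 1.19 (combined -2.32, SE 0.26, adjusted p = 0.00026). GRAMD1A, a sterol transfer protein, fell likewise (-2.20, SE 0.44, adjusted p = 0.0090; parts -3.42 and 1.22), but its TNFα call was lost on leaving out any 1 of 9 libraries, all except CTL_TNFa replicate 1 and replicate 1 of both DKD groups (adjusted p of 0.0089 to 0.11).

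Of the 149 genes of this class, 7 were in the lists of inflammation and antigen presentation, which held 109 of all 16118 genes tested. NFKB1, the p105 and p50 subunit of NF-kB, read 77.9, 78.5 and 78.8 CPM in CTL_untreated, 44.7, 58.6 and 60.9 in DKD_untreated, 121, 118 and 131 in CTL_TNFa and 77.1, 94.6 and 99.9 in DKD_TNFa. The parts of -0.48 and 0.69 left 0.21 (SE 0.12, adjusted p = 0.37). In replicates 2 and 3 alone it was 0.30 (adjusted p = 0.020). BCL2L1, a survival protein of the BCL2 family, had parts of -0.35 and 0.44 and a combined value of 0.091 (SE 0.082, adjusted p = 0.58). ERAP1 and ERAP2, neighbouring genes for the peptidases that trim peptides for MHC class I, differed in the balance. ERAP1 kept a net rise, 44.6, 44.7 and 48.2 CPM against 58.5, 63.6 and 65.5 (0.45, SE 0.077, adjusted p = 0.0041; parts -0.32 and 0.77). ERAP2 was at 47.8, 40.1 and 44.9 CPM against 54.6, 52.4 and 51.1 (0.25, SE 0.11, adjusted p = 0.20; 0.037 with the replicate block; parts -0.74 and 0.99). The 2 genes overlap in RefSeq, and no test compared them. B2M, the light chain of MHC class I and outside the naming rule, had parts of -0.20 and 0.35. NLRC5, which activates MHC class I genes, was at 0.19 to 0.29 CPM in both groups, close to the floor of counting, so that its parts of -1.20 and 1.16 rest on few reads, and neither part was called in replicates 2 and 3 alone. The TNFα part of NLRC5 was also lost on leaving out any 1 of 8 libraries, all except DKD_untreated replicate 1, CTL_TNFa replicate 2 and DKD_TNFa replicates 1 and 2 (adjusted p of 0.018 to 0.078).

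The mirror class also held a few matrix and adhesion genes. TGM2, a transglutaminase that crosslinks matrix, kept a clear net rise, from 10.2, 11.2 and 12.7 CPM to 32.4, 32.2 and 42.1 (1.64, SE 0.21, adjusted p = 0.00067; parts -0.66 and 2.30). LAMC1, a laminin chain, and ITGA2, the alpha 2 integrin that binds collagen, had combined values of 0.19 (adjusted p = 0.26) and 0.46 (adjusted p = 0.13). ITGA2 was called with the replicate block (0.021) and without DKD_TNFa replicate 1 (0.033), and both were called in replicates 2 and 3 alone (0.014 and 0.027). The knock-down part of LAMC1 (-0.27) was lost without replicate 1 or 2 of CTL_untreated or 2 or 3 of CTL_TNFa (0.014 to 0.056). LAMB1, another laminin chain, was in this class as well and lies outside the naming rule.

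Of the complement genes, C3 and C1S had parts that added up. C3, the central complement protein, read 689, 1005 and 912 CPM in CTL_untreated, 1188, 1246 and 1124 in DKD_untreated, 1736, 1824 and 1924 in CTL_TNFa and 2637, 2292 and 2384 in DKD_TNFa. The 4 groups did not overlap and DKD_TNFa was highest. Parts of 0.43 (SE 0.084, adjusted p = 0.0055) and 1.06 (SE 0.084, adjusted p = 3.13e-05) gave 1.49 (SE 0.12, adjusted p = 4.2e-05). C1S, a protease of the C1 complex, read 3.26, 4.33 and 4.73 CPM in CTL_untreated, 5.74, 10.1 and 10.7 in DKD_untreated, 7.12, 10.7 and 10.1 in CTL_TNFa and 15.4, 23.5 and 26.4 in DKD_TNFa. Here the 2 parts were almost equal, 1.17 and 1.24, and gave 2.41 (SE 0.29, adjusted p = 0.00045). MASP1, a protease of the lectin pathway, rose by 1.99 (SE 0.27, adjusted p = 0.00089) with a knock-down part of 2.39, and its TNFα part was called (lower) only with the replicate block. C1R, the partner of C1S, rose by 0.97 (SE 0.27, adjusted p = 0.048), but that call was lost on leaving out any 1 of 9 libraries, all except the 3 of DKD_untreated (adjusted p of 0.0044 to 0.16), and with no filter on low counts. Over all genes tested 6.17% rose and 3.21% fell (14.6% and 10.8% with the replicate block). Of 18 complement genes tested, 4 rose in the combined change (7 with the replicate block) and none fell (2 with it), with a median of 0.37. The parts of 2 added up and those of none opposed each other, against 4 and 3 with the replicate block and 3 and 5 in replicates 2 and 3 alone. Of all 16118 genes tested, the parts of 145 added up and those of 281 opposed each other (534 and 1133 with the block).

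Of 35 interferon-stimulated genes tested, 5 had parts that added up and none had called opposing parts. Over all 16118 genes tested these counts were 145 and 281. With the block the list had 7 and 5, against 534 and 1133 of all genes tested. In replicates 2 and 3 alone it had 7 and 4, against 512 and 1102 of the 16133 genes then tested. IFIH1, the RNA sensor MDA5, read 9.46, 7.02 and 7.41 CPM in CTL_untreated, 17.3 to 25.3 in DKD_untreated, 14.3 to 16.6 in CTL_TNFa and 39.1, 31.4 and 32.9 in DKD_TNFa (2.11, SE 0.18, adjusted p = 5.55e-05; parts 1.25 and 0.87). ISG20, an exonuclease, rose from 1.54 to 1.65 CPM to 7.12 to 9.14 (2.31, SE 0.21, adjusted p = 9.8e-05), with parts of 0.58 and 1.73. OAS1, a sensor of double-stranded RNA, rose from 4.45 to 5.86 CPM to 11.3 to 15 (1.41, SE 0.15, adjusted p = 0.00021), with parts of 0.38 and 1.03. The knock-down part of OAS1 was called in 3 of the 12 omissions, those of CTL_untreated replicate 1 and of replicate 1 of both DKD groups (adjusted p of 0.014 to 0.094). That of ISG20 was lost without CTL_untreated replicate 2 or 3 or DKD_TNFa replicate 3 (0.026 to 0.055). IFI27 and MX1, outside the naming rule, were the other 2 of the 5 that added up (1.82 and 0.93). The combined change was called higher for 6.17% and lower for 3.21% of all genes tested (14.6% and 10.8% with the replicate block). Of the 35 interferon-stimulated genes, 12 rose in the combined change (17 with the replicate block) and none fell (1 with it). IRF1, the factor that drives many of them, rose by 1.22 (SE 0.10, adjusted p = 5.55e-05) through TNFα alone, with a part of 1.12. TAP1, a peptide transporter of MHC class I loading, rose from 20.8 to 23.9 CPM to 49.8 to 55.4 (1.23, SE 0.084, adjusted p = 1.29e-05) with parts of 0.25 and 0.98, and its knock-down call was lost without CTL_untreated replicate 3 (adjusted p of 0.018 to 0.055).

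**Figure D4:**
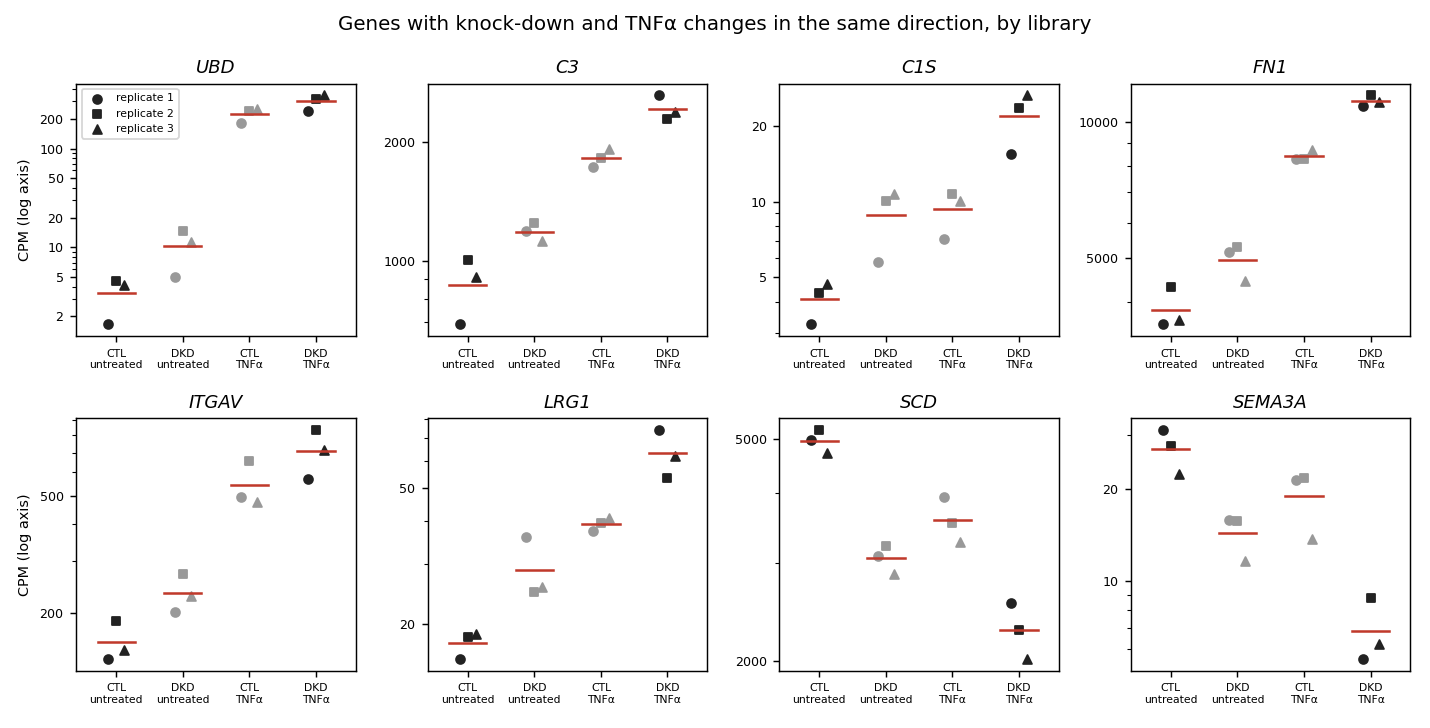
CPM of 8 genes with knock-down and TNFα changes in the same direction, by library. Each panel has its own log axis, points are libraries (shape gives the replicate number, black points are the groups compared here), and red lines are group means. In C3, C1S, FN1 and SCD the libraries of the single perturbations lie between the black groups. In UBD the highest CTL_TNFa library lies above the lowest DKD_TNFa library. C3 and C1S step up with each perturbation while SCD and SEMA3A step down.

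Some matrix and adhesion genes were also in the class with both changes higher. FN1, fibronectin, an abundant matrix protein that hepatocytes secrete, read 3578, 4323 and 3667 CPM in CTL_untreated, 4468 to 5288 in DKD_untreated, 8280 to 8678 in CTL_TNFa and 10841, 11454 and 11086 in DKD_TNFa (1.53, SE 0.082, adjusted p = 2.19e-06; parts 0.39 and 1.14). ITGAV, the alpha V integrin, a receptor for fibronectin and vitronectin, rose from 139, 188 and 149 CPM to 567, 836 and 716 (2.15, SE 0.19, adjusted p = 6.2e-05; parts 0.47 and 1.68). Its knock-down call was lost on leaving out any 1 of 8 libraries, all except replicate 2 of both CTL groups and replicate 1 of both DKD groups (adjusted p of 0.016 to 0.081). CTHRC1, a secreted collagen repeat protein, rose from 1.80 to 2.50 CPM to 12 to 28.4 (3.32, SE 0.53, adjusted p = 0.0026; parts 1.16 and 2.16). The knock-down part of CTHRC1 was called in 2 of the 12 omissions, those of DKD_untreated and DKD_TNFa replicate 1 (adjusted p of 0.0014 to 0.11). Outside these lists, PIK3AP1, an adaptor of PI3 kinase, GDPD5, a glycerophosphodiester phosphodiesterase, and ACSM3, a mitochondrial acyl-CoA synthetase, rose by 2.48, 2.93 and 2.39. Their smaller parts were at least 1.05.

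Fewer genes fell on both counts. SCD, stearoyl-CoA desaturase, which makes monounsaturated fatty acids, read 4989, 5201 and 4720 CPM in CTL_untreated, 3089, 3213 and 2866 in DKD_untreated, 3938, 3538 and 3264 in CTL_TNFa and 2537, 2272 and 2013 in DKD_TNFa. DKD_TNFa was lowest without overlap, and parts of -0.68 and -0.45 gave -1.13 (SE 0.094, adjusted p = 5.14e-05). SEMA3A, a secreted semaphorin, fell from 31.1, 27.7 and 22.3 CPM to 5.54, 8.79 and 6.2 (-1.98, SE 0.24, adjusted p = 0.00042; parts -1.19 and -0.79). ID1 and ID3, inhibitors of basic helix-loop-helix factors and targets of BMP signalling, fell by 1.28 and 1.18 on the log2 scale. SLC38A5, an amino acid transporter, HK2, hexokinase 2 of glycolysis, and the actin-binding proteins GSN and ADD3 fell by 1.20, 0.92, 0.75 and 0.71. The weaker part of several of these was near the threshold: that of TNFα in ID1 was lost on leaving out any 1 of 9 libraries, all except DKD_untreated replicate 1 and DKD_TNFa replicates 1 and 3 (adjusted p of 0.015 to 0.091), and that in HK2 on leaving out any 1 of 6, which were CTL_untreated replicate 2, DKD_untreated replicate 2 and replicates 1 and 3 of both TNFα groups (0.024 to 0.095). The knock-down call was lost without CTL_untreated replicate 1 or 2 for ID1 and ID3, without CTL_TNFa replicate 3 or DKD_TNFa replicate 2 for both, and without CTL_TNFa replicate 2 for ID1 (0.011 to 0.071 for ID1, 0.0065 to 0.057 for ID3). The TNFα call of SLC38A5 was lost without CTL_TNFa replicate 2 (0.0014 to 0.053).

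Genes of NF-kB signalling rose mostly with the TNFα part. In the combined change 6.17% of all genes tested rose (14.6% with the replicate block) and 3.21% fell. Of 37 genes of NF-kB signalling and feedback, 18 rose in the combined change (26 with the replicate block) and none fell. Their medians were 0.96 for the combined change, 0.90 for TNFα and -0.02 for the knock-down. NFKBIA, the inhibitor IkB alpha, read 22.6, 27.6 and 28.5 CPM in CTL_untreated and 102, 146 and 151 in DKD_TNFa (2.34, SE 0.18, adjusted p = 2.21e-05). RELB, an NF-kB subunit, and OPTN, optineurin, a regulator of the pathway, rose by 3.28 and 2.40. In none of NFKBIA, RELB and OPTN was the knock-down part called (0.14, 0.24 and 0.19, adjusted p of 0.51, 0.35 and 0.27), and only that of OPTN was called with the replicate block. CYLD and CFLAR, outside the naming rule, were the 2 members whose parts added up (1.58 and 1.13), and PLAU, NFKB1 and BCL2L1 the 3 whose parts opposed each other. In the fit with the block 6 added up and 7 opposed each other. Over all 16118 genes tested 145 added up and 281 opposed each other (534 and 1133 with the block).

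Of 16 chemokine and cytokine genes tested, 9 rose and none fell, against 6.17% and 3.21% of all genes tested. CCL20 rose from 3.82, 12.5 and 7.01 CPM to 34.9, 91.9 and 65.7 (3.06, SE 0.56, adjusted p = 0.0060), and IL32 from 62.9, 103 and 104 to 235, 423 and 482 (2.08, SE 0.33, adjusted p = 0.0024). CSF1, the macrophage growth factor, rose by 1.86 (SE 0.31, adjusted p = 0.0034). LTB, lymphotoxin beta, had 0.024 to 0.13 CPM in CTL_untreated and 0.40 to 1.14 in DKD_TNFa, and rests on few reads. In all 4, replicate 1 was the lowest library of both groups. TAPBP, tapasin of MHC class I loading, rose from 56.0 to 59.6 CPM to 145 to 175 (1.5, SE 0.085, adjusted p = 2.82e-06), with TNFα alone called. Together the 4 inflammatory lists held 109 tested genes, of which 48 rose and none fell in the combined change (68 and 2 with the replicate block). Their parts opposed each other in 7 and added up in 9, against 16 and 17 with the block and 14 and 15 in replicates 2 and 3 alone. Among all 16118 genes tested, parts opposed each other in 281 and added up in 145 (1133 and 534 with the block).

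Cell cycle and cholesterol genes that were called fell. Of 32 cell cycle genes, 2 fell (4 with the replicate block), against 3.21% of all genes tested (10.8% with it). MKI67, the Ki-67 antigen of dividing cells, fell from 706, 608 and 658 CPM to 404, 338 and 361 (-0.84, SE 0.16, adjusted p = 0.0068), and UBE2C, a ubiquitin enzyme of mitotic exit, fell by 1.11 (SE 0.24, adjusted p = 0.015). No gene of this list rose, 2 had a combined value above 0, and the median was -0.34. The UBE2C call was lost without CTL_untreated replicate 1 or 3 or DKD_TNFa replicate 1 or 2 (adjusted p of 0.0052 to 0.063). In replicates 2 and 3 alone 13 cell cycle genes fell and 1 rose. Of 23 genes of cholesterol synthesis and uptake, 4 fell, HMGCS1, LSS, EBP and DHCR7 (by 0.57, 0.47, 0.31 and 0.29), and none rose. In the fit with the block 11 fell and none rose, beside the same shares of all genes tested as above. LSS was not called without CTL_untreated replicate 1 or 2 or DKD_TNFa replicate 2 or 3 (adjusted p of 0.020 to 0.092), and DHCR7 without any 1 library of the 2 groups compared (0.020 to 0.099). EBP was not called without any 1 CTL_untreated library, DKD_untreated replicate 2, CTL_TNFa replicate 3 or DKD_TNFa replicate 2 or 3 (0.021 to 0.12).

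The remaining lists can be given by counts. Of all genes tested, 6.17% rose and 3.21% fell in the combined change (14.6% and 10.8% with the replicate block). Of 30 matrix genes tested, 9 rose and 1 fell (SERPINE2, -2.25, outside the naming rule), with a median of 0.66. TIMP3, a metalloproteinase inhibitor, and SPARC, a collagen-binding protein, rose by 2.55 and 1.85 with the knock-down part called. Of 27 adhesion genes, 8 rose and 4 fell, among them PTPRJ, a receptor phosphatase (3.25), and ALCAM, a cell adhesion molecule (3.35), which rose, and EFNB2, an ephrin ligand (-2.17), which fell, all with the knock-down part. CDH16 (-2.23), outside the naming rule, also fell. SPATA18 rose (0.78) among 22 p53 targets (6 rose and 1 fell with the replicate block), and VLDLR, a lipoprotein receptor, rose (1.36) and HYOU1, a chaperone, fell (-0.32) among 21 genes of the unfolded protein and integrated stress responses (4 and 5 with the block). BNIP3 (-0.42) and HK2 fell among 21 hypoxia and glycolysis genes (5 fell and 2 rose with the replicate block), and the BNIP3 call was lost without replicate 1 or 2 of CTL_untreated or 2 or 3 of DKD_TNFa (adjusted p of 0.0064 to 0.11). No call was made among the 13 mitochondrially encoded genes (3 lower with the replicate block). Among 11 markers of other cell types, LYZ, ACTA2 and EPCAM rose (1.53, 0.62 and 0.30) and CD4 fell (-2.18), against 4 and 2 with the block. The ACTA2 call was lost without any 1 CTL_untreated library or DKD_TNFa replicate 1 or 2 (adjusted p of 0.020 to 0.12), and that of EPCAM without any 1 library except replicate 1 of both DKD groups (0.023 to 0.18).

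**Figure D5:**
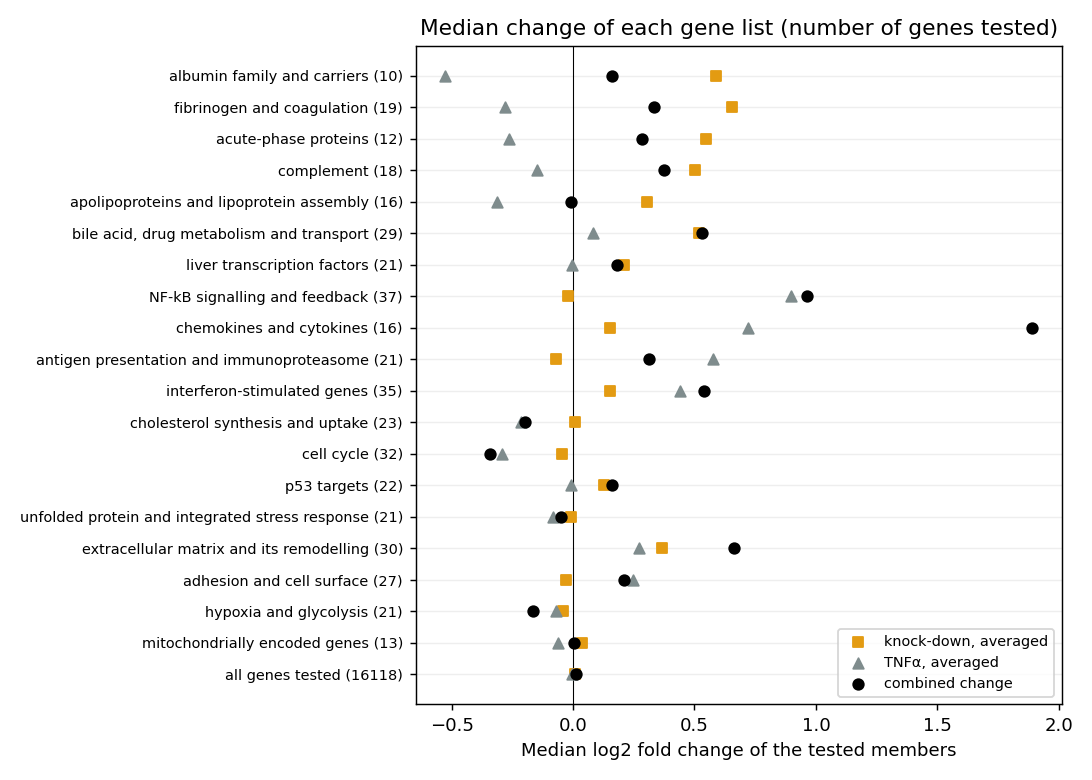
Median log2 fold change of the tested members of each gene list for the knock-down change (squares), the TNFα change (triangles) and the combined change (circles). In the plasma protein lists the squares lie right of 0 and the triangles left of it, with the circles between, while in the NF-kB list circle and triangle lie together at 0.96 and 0.90. Medians of parts need not add up to the median of the sum.

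The interaction asks whether both changes together differ from the sum of the single steps, that is, from DKD_untreated and CTL_TNFa each taken against CTL_untreated. No gene was called for it by edgeR's quasi-likelihood test, with or without the replicate block, and 184 genes (1.14%) had an unadjusted p under 0.05 (556 with the block). DESeq2 called 5: CRYAA, RPL37P6, TBC1D3D, ENSG00000259086 and ENSG00000259784, which are named after their values were seen. Without CTL_untreated replicate 2, edgeR called 1 gene, TBC1D3I. RPL37P6 is a pseudogene and the TBC1D3 genes are a family of near-identical copies. With 3 libraries a group the missing calls do not show that the changes were additive.

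Among genes with opposing parts, some single-gene interaction values lay away from 0, but none passed the adjustment. Over all genes tested, 1.14% had an unadjusted p under 0.05, less than that threshold alone gives without any interaction. The values below are therefore a description only. FGB had an interaction of -1.13 (SE 0.30, unadjusted p = 0.0034): the knock-down rise was 3.10 without TNFα and 1.97 with it. NR1H4 leaned the other way, at 1.0 (SE 0.31, unadjusted p = 0.0079), with a knock-down rise of 1.62 without TNFα and 2.62 with it, and DKK4 (1.35), HP (0.71) and PHGDH (0.46) shared its sign. FGG, in contrast, had knock-down changes of 2.42 and 2.40 and an interaction of -0.013. The adjusted p of each of these was 1.0 with edgeR. Over the 132 genes with knock-down higher and TNFα lower the median interaction was 0.18, against -0.001 over all genes tested, and 17 had an unadjusted p under 0.05. Over the 149 of the mirror class the median was -0.008 and 8 had one.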

How the data were processed

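RNA of 12 HepG2 libraries (4 groups of 3) was sequenced. The estimated counts per gene are the authors' deposited values. The submitters' processing notes name CASAVA 1.7, Salmon 0.14.0, DESeq2 and the build GRCh38, with no role given for each. No source used here gives the annotation or strand setting. Another deposited table, of normalised signal, equals these counts divided by 1 factor per library (largest relative spread 1.642e-15) and was not used for tests. Of 35984 genes, 10456 had no count and 16118 passed filterByExpr (minimum count 10, minimum total 15). Counts were rounded to whole numbers and fitted in R 4.3.3 with edgeR 4.0.16 (TMM, quasi-likelihood test, 4 group means, 8 residual degrees of freedom), with adjusted p from the Benjamini-Hochberg method. The model was tested on simulated data.

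Named genes are the 2 targets, the 10 largest called rises and falls in the combined change, 8 genes of each class with the largest smaller part, up to 4 called members of each list with the smallest p and up to 3 with opposing parts, and up to 6 called for the interaction. The largest rises and falls, the class genes and the interaction genes needed an average log2 CPM of at least 2. Their symbols could not be clone or locus names. The largest rises and falls also needed compared groups that did not overlap in CPM, so their lack of overlap follows from the rule. The members and gene lists were chosen with earlier results of these data known. Same-numbered libraries deviated together from their group means (correlations of 0.193 to 0.695 over 18 pairs of libraries across groups, 0.244 to 0.543 for the groups compared), so the numbers were taken as pairing the libraries. Alternatives were the replicate block, DESeq2 1.42.0, its size factors, other filters, fewer groups, replicates 2 and 3 alone and leaving out each library. Some genes selected by the rule are not reported here. Replicates of a group differed by more than sampling noise.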

Additional observations from a re-analysis of the deposited data

How the results depend on the processing

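No called change of a named gene reversed its sign under any alternative run, and the other genes were not checked for this. Of the 360 changes of named genes (3 for each gene), 21 that were not called changed sign in at least 1 alternative, 11 of them combined changes, such as FGA (0.47, and -0.22 in replicates 2 and 3 alone) and CYP4F3 (0.36, lowest -0.13). The counts of calls moved with the fit. Genes higher in the combined change (994) numbered 2360 with the replicate block, 2098 in replicates 2 and 3 alone and 2196 with only the 2 groups compared and the block, and genes lower (517) numbered 1738, 1507 and 1863, and 1025 with DESeq2. For the knock-down change, the replicate block gave 2545 higher and 2488 lower, replicates 2 and 3 alone 2212 and 1888, and DESeq2 1466 lower. For the TNFα change these were 1993 and 1421, 2089 and 1852, and 824 lower. The single steps with the block, with DESeq2 and in replicates 2 and 3 alone gave 2657, 1436 and 1983 calls for the knock-down without TNFα, 3133, 1752 and 2375 with it, 2037, 1054 and 2225 for TNFα in control cells and 1237, 655 and 1360 in knock-down cells. DESeq2 called 5 genes for the interaction. The 4 classes (both higher, both lower, knock-down higher with TNFα lower, and the mirror class) held 366, 168, 522 and 611 genes with the block, 182, 88, 257 and 270 with DESeq2, and 361, 151, 571 and 531 in replicates 2 and 3 alone. They held 25, 3, 36 and 24 by the single steps from CTL_untreated and 42, 2, 51 and 43 at an adjusted p under 0.01. Without a filter on low counts 15 genes had both changes lower. Leaving out each library in turn gave 533 to 1409 higher and 264 to 1039 lower genes in the combined change, 993 to 1512 and 686 to 1117 for the knock-down, 482 to 1093 and 207 to 875 for TNFα, and 0 to 1 for the interaction. It gave 423 to 917, 572 to 1545, 149 to 709 and 127 to 357 for the single steps, and 64 to 156, 9 to 44, 85 to 218 and 72 to 207 for the classes. The share of combined calls that were higher was 65.8%, against 57.6% with the block and 56.8% with DESeq2. With 3 libraries a group, the interaction was the least precise comparison, and genes of few reads such as LTB and NLRC5 are limited by depth.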
